A study of Homo sapiens with 6 samples.

Results

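VGF is described here with 9 other genes of the regulated secretory pathway, CHGA, CHGB, SCG2, SCG3, SCG5, PCSK1, PCSK1N, CPE and RAB3B, which were found by gene name among the 58735 genes of the deposited count table. Each of the 10 names matched 1 row. The set was chosen by the fold changes of si-SRSF11 against si-NC, in which VGF was among the strong falls and RAB3B among the strong rises. Values of these 10 genes are therefore given as a description, with no test.

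LoVo is an established human colorectal cancer (CRC) cell line. The cells were transfected with a negative control siRNA (si-NC, 3 libraries) or with an siRNA that targets SRSF11, a serine/arginine-rich splicing factor (si-SRSF11, 3 libraries), and 150 bp paired-end reads were made from their poly(A) RNA. The comparison asks which transcripts change when SRSF11 is lowered. Both conditions were unsorted cultures of the same line, and the time after transfection and the siRNA chosen among those the study lists are not given in the sources used here.

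Cells with a regulated secretory pathway store peptides in dense-core granules and release them when calcium rises. Granins such as CHGA, CHGB, SCG2 and VGF load the granule, the proprotein convertases PCSK1 and PCSK2 and the carboxypeptidase CPE cut the stored precursors, and RAB3 and RAB27 GTPases bring the granule to the plasma membrane. In the gut this machinery marks enteroendocrine cells, and VGF is a granin-like precursor, inducible by nerve growth factor, that is cut into several bioactive peptides.

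Library totals ranged from 14369525 to 16685719 counts. SRSF11 itself had 1271 to 1363 counts in the si-NC libraries and 789 to 807 in the si-SRSF11 libraries, which left 57.2% of the si-NC level, so each library stood as its label says. The 15801 genes that reached 10 counts in 3 or more libraries were tested by edgeR's quasi-likelihood test, and a gene was called at a Benjamini-Hochberg adjusted p under 0.05. It called 24.6% of the tested genes, 13.2% as higher and 11.4% as lower in si-SRSF11. Scaling by library size alone in place of TMM turned this split, from 2081 higher and 1805 lower to 1585 higher and 2289 lower, with a shift of -0.03 in the median log2 fold change.

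VGF stood far above the other granule genes and was lower in si-SRSF11. The si-NC libraries held 11905, 11744 and 13490 VGF counts, in the order of replicates 1, 2 and 3, and the si-SRSF11 libraries held 6666, 6865 and 7535. Every si-SRSF11 library was below every si-NC library, and the 3 libraries of each condition lay close together. On the CPM scale, which divides counts by the TMM-scaled library size, the mean ± SD of 3 libraries was 819.9 ± 46.7 for si-NC and 436.9 ± 21.9 for si-SRSF11. This left 53.3% of the si-NC level, a log2 fold change of -0.91 (standard error 0.050). In bulk RNA, fewer cells with VGF and less VGF RNA per cell cannot be told apart.

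RAB3B, a small GTPase of vesicle docking, went the other way from a low level. The si-NC libraries held 28, 56 and 34 counts, in the order of the replicates, and the si-SRSF11 libraries held 95, 88 and 85. The conditions did not overlap, but si-NC replicate 2 held the most counts of its condition by a wide margin. Its mean ± SD of 3 libraries was 2.60 ± 0.948 CPM for si-NC and 5.57 ± 0.451 CPM for si-SRSF11, a log2 fold change of 1.09 (standard error 0.22). Without si-NC replicate 2 the log2 fold change was 1.43.

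PCSK1N, which encodes proSAAS, an inhibitor of PCSK1, was the other member with enough reads to enter the fit. It had 69, 64 and 58 counts in si-NC and 67, 53 and 56 counts in si-SRSF11, in the order of the replicates. These ranges overlap, and the log2 fold change of -0.21 was about as large as its standard error of 0.19.

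The chromogranins and secretogranins proper were at or near 0. CHGA, the granin used most widely as a neuroendocrine marker, had 3, 0 and 1 counts in si-NC and 2, 0 and 2 in si-SRSF11. CHGB had a single count over the 6 libraries, in si-SRSF11 replicate 2, and SCG3, which tethers granins to the granule membrane, had a single count in si-NC replicate 3. SCG2, the precursor of secretoneurin, had 2, 5 and 4 counts in si-NC and 4, 11 and 6 in si-SRSF11. SCG5, the chaperone of PCSK2 known as 7B2, had 4, 8 and 7 counts in si-NC and 17, 11 and 8 in si-SRSF11. For both genes the ranges of the conditions touched or overlapped, and they stayed under the filter on low counts. A fit with no such filter gave log2 fold changes of 0.81 (standard error 0.70) for SCG2 and 0.82 (standard error 0.52) for SCG5.

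The enzymes that cut stored precursors were as scarce. PCSK1, the convertase that begins the cleavage of VGF and other prohormones, had 0 counts in each si-NC library and 1, 1 and 0 counts in si-SRSF11. CPE, which trims basic residues after that cleavage, had 0, 2 and 0 counts in both conditions. A library with 0 counts allows up to 3 counts, which is 0.184 to 0.207 CPM at these depths and covers counting error only. At this depth no difference in CHGA, CHGB, SCG3, PCSK1 or CPE was detectable.

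Of the 10 members, 3 passed the filter on low counts. Of these, VGF and RAB3B were without overlap between the conditions, as were 38.8% of all tested genes, and RAB3B alone had an absolute log2 fold change over 1, which 1.09% of all tested genes had together with an adjusted p under 0.05. Nothing is read from these counts, since the comparison chose the members. VGF and RAB3B were not at the very edge of the comparison, since 70 of the 12770 tested protein-coding genes had a log2 fold change as low as VGF or lower, VGF included, and 57 had one as high as RAB3B or higher, RAB3B included.

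**Figure D1:**
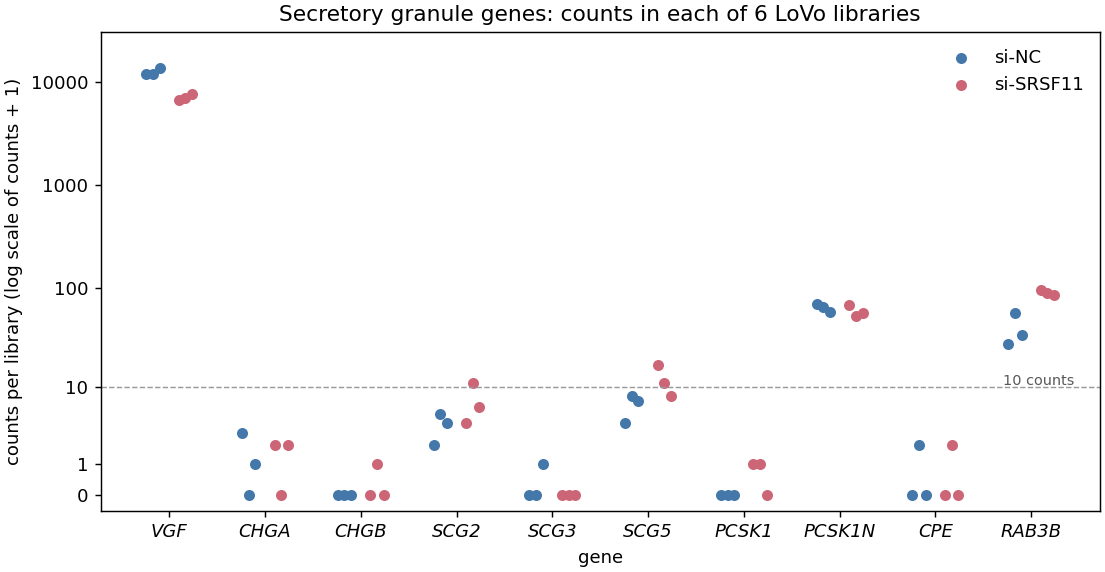
Counts of the 10 granule genes (x axis) in each of the 6 LoVo libraries (y axis, log scale of counts + 1), with 1 point per library, si-NC in blue and si-SRSF11 in red, and a dashed line at 10 counts. VGF lies between 6666 and 13490 counts, PCSK1N and RAB3B lie between 28 and 95, and most points of the other 7 genes lie under the line.

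Levels of different genes were compared per kilobase of exon length. VGF had 303.2 ± 17.3 CPM per kb (SD, n = 3) in si-NC and ranked 85 among 19951 protein-coding genes, and it ranked 192 in si-SRSF11. Next among the members came PCSK1N with 3.10 ± 0.380 CPM per kb (SD, n = 3), rank 8413. RAB3B with 0.202 ± 0.0738 CPM per kb and SCG5 with 0.190 ± 0.0584 CPM per kb (SD, n = 3 each) followed, and these neighbours did not differ beyond their spread. SCG2 had 0.0887 ± 0.0355 CPM per kb and CHGA 0.0291 ± 0.0341 CPM per kb (SD, n = 3 each), ranges that overlap, as do those of CHGA, CPE and SCG3. PCSK1 and CHGB were at 0 in si-NC and shared the rank of 16071, beside 16641 protein-coding genes with any count. In si-SRSF11 RAB3B, at 0.433 ± 0.0351 CPM per kb, was still within the spread of SCG5, at 0.342 ± 0.139 CPM per kb (SD, n = 3 each).

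VGF also set the sum over the members. The summed level of the 10 genes was 781.6 to 872.7 CPM in si-NC and 432.7 to 471.7 CPM in si-SRSF11. There were 161 tested genes with a mean CPM at or above that of VGF, VGF included, and VGF had the lowest log2 fold change of them. Nothing is read from this place, since the cutoff is the level of VGF itself and VGF was chosen for its fall.

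**Figure D2:**
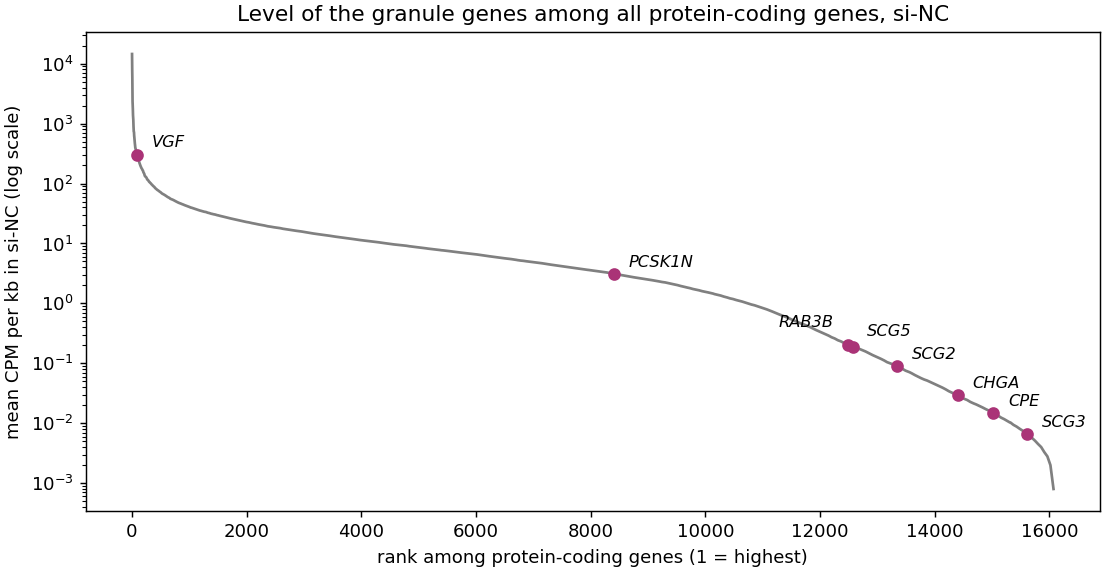
Mean level in si-NC (y axis, CPM per kb, log scale) of all protein-coding genes with counts in si-NC, ordered by rank (x axis, 1 is the highest) as a grey line, with the members as points. VGF stands at rank 85, PCSK1N at rank 8413 and the other members shown at rank 12493 or beyond; PCSK1 and CHGB, at 0, have no place on the log axis.

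The name neuroendocrine was checked against the markers of that cell type. Of 12 enteroendocrine markers, 10 stayed under 10 counts in each library, among them CHGA, CHGB, INSM1 with 1 count in all, and NEUROD1 and GCG with 0 counts in all 6 libraries. The exceptions were ENO2, the enolase of neurons that many tumour lines also express, and SYP, the vesicle protein synaptophysin. ENO2 was lower in si-SRSF11 (log2 fold change -0.16, edgeR's adjusted p = 0.019), and SYP had 26, 20 and 14 counts in si-NC and 10, 19 and 10 in si-SRSF11 (log2 fold change -0.71, adjusted p = 0.18). The summed level of the 12 markers was 110.1 to 115.3 CPM in si-NC and 99.3 to 102.4 CPM in si-SRSF11, most of it ENO2. The 9 epithelial markers were all tested, with 5733 to 6091 CPM in si-NC and 5826 to 6229 CPM in si-SRSF11. Of these, 2 were called higher, the intestinal transcription factors CDX1 (log2 fold change 0.31, adjusted p = 0.0012) and CDX2 (0.40, adjusted p = 3.9e-04), where 13.2% of all tested genes were, and 0 were called lower. Fibroblast markers summed to 19.8 to 23.3 CPM in si-NC and 24.9 to 28.97 CPM in si-SRSF11, and 5 of the 7 stayed under 10 counts in each library. Of the 2 tested, PDGFRB was higher (log2 fold change 0.70, adjusted p = 2.3e-04) and COL1A1 was not called (-0.12, adjusted p = 0.47). Leukocyte markers summed to at most 4.72 CPM, and neither of the 2 tested was called. The libraries thus held a high level of VGF with the defining genes of an enteroendocrine cell at or near 0.

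The regulators of that cell type were read next. Of 24 transcription factors of the enteroendocrine lineage, 17 stayed under 10 counts in each library and 10 had 0 counts in all 6, including NEUROD1. Of the 7 that were tested, 1 was called higher, where 13.2% of all tested genes were, and 0 were called lower. It was SOX4, a factor of progenitor cells (log2 fold change 0.31, adjusted p = 1.1e-04). With si-SRSF11 replicate 3 left out, 2 were called higher. The gut peptide hormones and amine synthesis genes gave a like picture, with 7 of 26 tested and 9 at 0 in all libraries, GCG and the neurotensin gene NTS among them. Of the 7 tested, 1 was called lower, where 11.4% of all tested genes were, and 0 were called higher. The lower one was the adrenomedullin relative ADM2 (log2 fold change -0.24, adjusted p = 6.4e-04).

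Sequences before the transcription start were taken from RefSeq (GRCh38.p14), from 250 bases before to 50 bases after the start, and were found for 8 of the 10 members in 9 promoters. VGF is shown because it holds each of the searched motifs, CHGA and PCSK1 because they share its CRE at a level near 0, SCG3 for a spaced RE1 match, and RAB3B as the member that was higher. Each sequence is written 5′ to 3′ on the strand of its gene, and capitals mark the CRE or the RE1 match.
VGF (chr7:101165520-101165819, minus strand): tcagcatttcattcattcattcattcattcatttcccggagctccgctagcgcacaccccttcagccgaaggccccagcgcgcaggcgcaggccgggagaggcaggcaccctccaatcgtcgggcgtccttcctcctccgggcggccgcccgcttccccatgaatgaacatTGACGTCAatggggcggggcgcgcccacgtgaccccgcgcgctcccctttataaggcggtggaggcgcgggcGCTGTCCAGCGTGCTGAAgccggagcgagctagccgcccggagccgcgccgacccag
CHGA (chr14:92922900-92923199, plus strand): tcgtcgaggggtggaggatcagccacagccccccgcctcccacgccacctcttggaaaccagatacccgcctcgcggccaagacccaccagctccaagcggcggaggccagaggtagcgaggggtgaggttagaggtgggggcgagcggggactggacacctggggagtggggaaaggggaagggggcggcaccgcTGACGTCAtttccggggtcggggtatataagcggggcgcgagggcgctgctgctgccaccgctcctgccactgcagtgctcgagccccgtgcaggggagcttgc
PCSK1 (chr5:96433199-96433498, minus strand): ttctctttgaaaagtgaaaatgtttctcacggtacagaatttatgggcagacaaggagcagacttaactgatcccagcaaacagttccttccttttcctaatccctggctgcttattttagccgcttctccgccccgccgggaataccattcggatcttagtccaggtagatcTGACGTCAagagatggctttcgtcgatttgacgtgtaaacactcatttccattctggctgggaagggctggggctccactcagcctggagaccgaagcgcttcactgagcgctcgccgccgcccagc
SCG3 (chr15:51681253-51681552, plus strand): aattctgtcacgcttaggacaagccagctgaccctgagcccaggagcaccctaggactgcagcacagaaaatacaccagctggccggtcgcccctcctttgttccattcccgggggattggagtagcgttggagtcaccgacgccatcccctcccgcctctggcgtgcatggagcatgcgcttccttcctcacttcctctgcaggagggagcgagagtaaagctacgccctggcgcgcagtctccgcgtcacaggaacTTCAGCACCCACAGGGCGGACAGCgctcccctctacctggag
RAB3B (chr1:51990651-51990950, minus strand): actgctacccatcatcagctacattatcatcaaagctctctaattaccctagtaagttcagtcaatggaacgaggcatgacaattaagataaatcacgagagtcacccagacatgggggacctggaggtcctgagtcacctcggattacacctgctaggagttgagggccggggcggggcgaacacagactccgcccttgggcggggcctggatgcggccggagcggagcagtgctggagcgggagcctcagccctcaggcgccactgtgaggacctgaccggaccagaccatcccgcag

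The cyclic AMP response element (CRE), TGACGTCA on either strand, is the site that CREB and ATF1 bind. VGF held it at -79 to -72 from the start, CHGA at -54 to -47 and PCSK1 at -77 to -70, which made 3 of the 9 promoters of members, where 1.85% of all 35114 promoters searched and 2.70% of the 15276 promoters of tested genes held it. VGF was the single member with the E-box CACGTG, at -54 to -49, which 7.26% of all promoters and 9.37% of those of tested genes held. The CCAAT box, read as CCAAT on either strand, was in VGF, SCG3 and PCSK1 and in 34.6% of all promoters. The repressor element RE1, which REST binds in neuronal genes, was read as TTCAGCAC and GGACAGC with 3 bases between them on either strand. VGF held it on the opposite strand at -7 to +11, across its start. In all, 4 of the 35114 promoters held it (0.0114%), VGF included. With 2 to 10 bases between the 2 parts it was also in SCG3, at +9 to +32, and in 15 promoters in all (0.0427%). RAB3B held none of these letters. A match describes the sequence and is no evidence of binding, and the motifs were chosen after these promoters had been seen.

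CREB, its partners and genes known as its targets were then read in the counts. Of 23 genes of the CREB pathway and its known immediate targets, 20 were tested, and 9 were called lower and 1 higher, where 11.4% and 13.2% of all tested genes were. Their median log2 fold change was -0.16, beside 0.00 over all tested genes. With each library left out in turn, 6 to 9 genes of this list were called lower. Among those called lower were PER1, a clock gene (log2 fold change -0.70, adjusted p = 2.5e-09), EGR1, an immediate early transcription factor (-0.48, adjusted p = 5.5e-08), and NR4A1, an immediate early nuclear receptor (-0.49, adjusted p = 3.4e-06). None of these 3 genes held the exact TGACGTCA in the promoters searched, and other forms of the CRE were not searched. EGR1 had 8307, 8506 and 9286 counts in si-NC and 6404, 6691 and 6753 counts in si-SRSF11, so its libraries did not overlap. CREB1 itself had 479, 568 and 541 counts in si-NC and 496, 649 and 566 in si-SRSF11 (log2 fold change 0.02, adjusted p = 0.90), a value whose sign turned under scaling by library size. The gene called higher was ATF1 (log2 fold change 0.26, adjusted p = 0.014), which lost the call without si-NC replicate 1 (adjusted p = 0.071), si-SRSF11 replicate 2 (adjusted p = 0.055) or si-SRSF11 replicate 3 (adjusted p = 0.058). Other genes overlap 10.3% of the exon bases of NR4A1, and no source says that strand was used in counting.

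REST, the repressor that reads RE1, rose. It had 662, 758 and 732 counts in si-NC and 940, 1022 and 845 counts in si-SRSF11, with no overlap between the conditions (log2 fold change 0.29, edgeR's adjusted p = 0.0032). Of 15 genes of the REST complex 14 were tested, and 5 were called higher and 1 lower, where 13.2% and 11.4% of all tested genes were, with a median log2 fold change of 0.07. The others named among the higher ones were the deacetylases HDAC2 (0.25) and HDAC1 (0.22) and the histone demethylase KDM1A (0.23), and the lower one was the scaffold SIN3B (-0.22). SRRM4, a neural splicing factor that acts on REST, had 0 counts in all 6 libraries. Whether the levels of REST, CREB targets and VGF are linked was not tested.

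**Figure D3:**
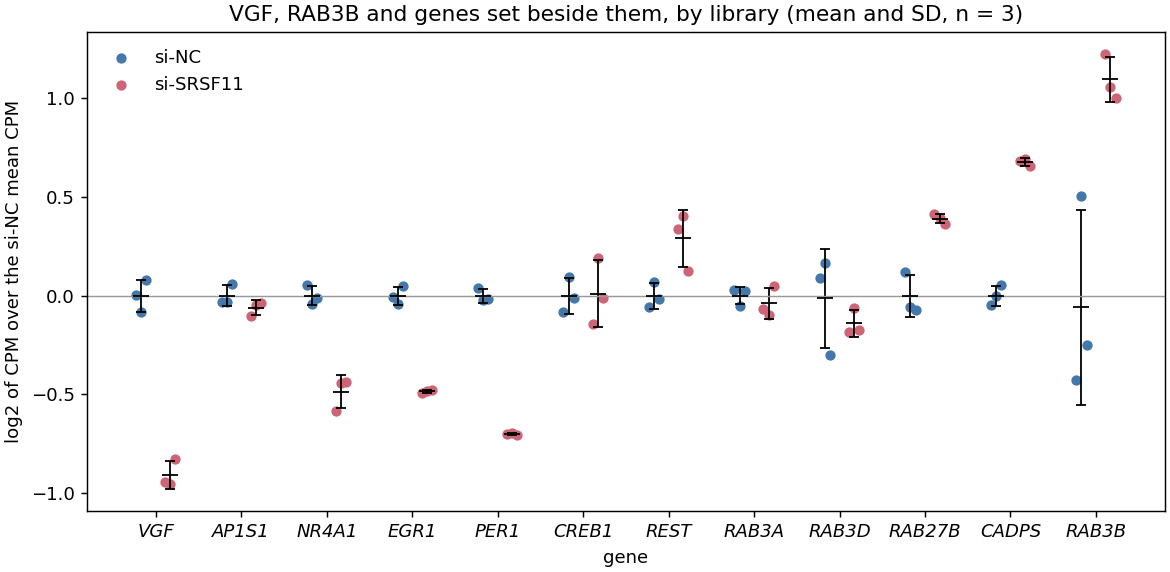
CPM of VGF, RAB3B and 10 genes set beside them (x axis) in each library, as log2 of the value over the si-NC mean (y axis), si-NC in blue and si-SRSF11 in red, with bars for mean and SD (n = 3). VGF, PER1, EGR1 and NR4A1 lie lower in each si-SRSF11 library and REST, RAB27B, CADPS and RAB3B lie higher. AP1S1, CREB1, RAB3A and RAB3D stay within 0.5 of the si-NC mean, as do EGR1, REST and RAB27B.

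The other tested RAB3 genes, RAB3A and RAB3D, which share the docking role of RAB3B, were not called. RAB3A had 113 to 122 counts in si-NC and 115 to 130 in si-SRSF11 (log2 fold change -0.04, adjusted p = 0.87). RAB3D, the family member of exocrine granules, had a log2 fold change of -0.14 (adjusted p = 0.25), which became a call without si-NC replicate 3 (-0.27, adjusted p = 0.010). RAB3C had 2 counts over the 6 libraries. Per kilobase, RAB3D was the highest of the RAB3 genes in si-NC with 11.7 CPM per kb, followed by RAB3A with 4.24 and RAB3B with 0.202. Other genes overlap 24.9% of the exon bases of RAB3D and 9.08% of those of RAB3A, while RAB3B has no such overlap. RAB3B, however, had the lowest counts of the tested RAB3 genes. The standard error of its log2 fold change was 0.22, beside 0.13 for RAB3A and 0.085 for RAB3D.

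RAB27B, which docks granules in secretory epithelia, was higher, with 396, 367 and 372 counts in si-NC and 523, 536 and 527 in si-SRSF11 (log2 fold change 0.39, adjusted p = 6.6e-04). Its relative RAB27A had a log2 fold change of -0.14 (adjusted p = 0.52). Of the 25 genes of RAB3 and RAB27 exocytosis, 20 were tested, and 5 were called higher and 3 lower, which is 40% called beside 24.6% of all tested genes, with a median log2 fold change of -0.06. Without si-NC replicate 1, or without si-NC replicate 3, the number higher was 3. Besides RAB27B the higher ones included the RAB27 effectors SYTL5 (0.53) and RPH3AL (0.23). The lower ones were the granule GTPase RAB26 (-0.70, adjusted p = 3.55e-05), the RAB3 exchange factor RAB3IL1 (-0.35) and the effector SYTL1 (-0.22). SYTL5 lost its call without si-NC replicate 1 (adjusted p = 0.065) and SYTL1 without si-NC replicate 3 (adjusted p = 0.15).

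Of 31 SNARE and calcium-triggered fusion genes 22 were tested, with 3 called higher, 4 lower and a median log2 fold change of -0.01. The share called was 31.8%, near the 24.6% of all tested genes and the 27.4% of the protein-coding ones. CADPS, which primes dense-core granules for release, had 861, 931 and 992 counts in si-NC and 1541, 1614 and 1577 in si-SRSF11, with no overlap (log2 fold change 0.68, adjusted p = 4.3e-09). The v-SNARE VAMP2 had 505, 516 and 570 counts in si-NC and 395, 380 and 393 in si-SRSF11 (log2 fold change -0.54, adjusted p = 1.4e-05), while its relative VAMP3 was higher (0.21, adjusted p = 0.0090), a call lost without si-NC replicate 2 (adjusted p = 0.072), where the list had 1 higher gene. The priming factors UNC13A (-0.71) and UNC13D (-0.27) were lower. STXBP3, a syntaxin-binding protein, was called higher at 0.26 (adjusted p = 0.038), but the call was lost with each library left out in turn. It was also lost with DESeq2 (adjusted p = 0.088), under scaling by library size (adjusted p = 0.074) and with no filter on low counts (adjusted p = 0.081). The t-SNARE STX1A had a log2 fold change of -0.25 (adjusted p = 0.076) and passed under scaling by library size (adjusted p = 0.043). SNAP25, the partner of STX1A in neurons, had 0 counts in all 6 libraries. Other genes overlap 13.2% of the exon bases of VAMP2 and 17.9% of those of STX1A.

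Of the 13 prohormone processing enzymes outside the members, 11 were tested, and 4 were called higher and 1 lower, where 13.2% and 11.4% of all tested genes were, with a median log2 fold change of 0.04. The tyrosine sulfotransferase TPST2, which sulfates secreted proteins in the Golgi, had 569, 536 and 635 counts in si-NC and 888, 843 and 890 in si-SRSF11 (log2 fold change 0.50, adjusted p = 9.0e-06). The glutaminyl cyclase QPCTL (0.28) and the protease cathepsin L, CTSL (0.25), were also higher, and the convertase PCSK4 was lower (-0.50, adjusted p = 0.0041). PCSK2, the second granule convertase, had 0 counts in all 6 libraries. FURIN, the convertase of the constitutive pathway, had a log2 fold change of -0.09 (adjusted p = 0.17), and the amidating enzyme PAM had -0.07 (adjusted p = 0.40). FURIN stood at 25.6 CPM per kb and PAM at 5.66 CPM per kb in si-NC, where PCSK1 was at 0.

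Of 33 genes of the granule membrane and its biogenesis 26 were tested, with 4 called higher, 3 lower and a median log2 fold change of 0.00. The share called was 26.9%, near the 24.6% of all tested genes. There were 2 higher genes without si-NC replicate 3, and 5 lower ones under scaling by library size. RAB2A, which acts in granule maturation (0.20), the Golgi calcium-binding protein NUCB1 (0.19) and the tethering subunit VPS53 (0.27) were higher. The BAR-domain proteins ARFIP2 (-0.39, adjusted p = 1.0e-05) and PICK1 (-0.31, adjusted p = 7.0e-04) and the granule factor HID1 (-0.20, adjusted p = 0.027) were lower. HID1 lost its call with DESeq2 (adjusted p = 0.053) and without either si-NC replicate 1, si-NC replicate 2, si-NC replicate 3 or si-SRSF11 replicate 3, and VPS53 lost it without si-NC replicate 3 (adjusted p = 0.051). PTPRN, a membrane protein of dense-core granules, had at most 4 counts per library. GNAS, whose locus also encodes a chromogranin-like protein, had 9729 to 9891 counts in si-NC and 9551 to 11236 in si-SRSF11 (log2 fold change -0.03, adjusted p = 0.69).

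Over the 8 lists together, 127 of 190 genes were tested and 45 were called, 23 higher and 22 lower. That is 35.4%, beside 24.6% of all tested genes and 27.4% of the tested protein-coding genes. The median log2 fold change was -0.03.

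**Figure D4:**
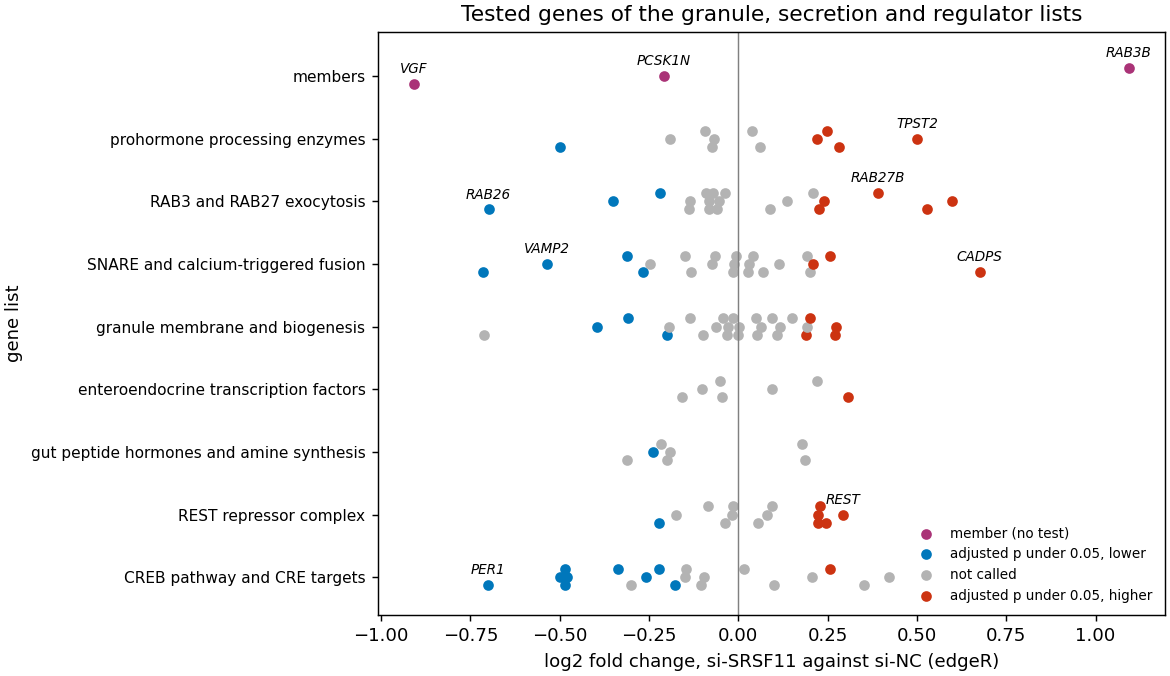
Log2 fold change, si-SRSF11 against si-NC (x axis), of each tested gene in the members and the 8 gene lists (y axis), with called genes in red or blue, genes not called in grey and members, which have no test, in purple. VGF at -0.91 and RAB3B at 1.09 lie at the 2 ends, and the called genes of the lists lie between -0.71 and 0.68 on both sides of 0, with 9 of the 10 called CREB pathway genes on the lower side.

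The fall of VGF was then read beside its neighbours on chromosome 7, where it lies at 101162509 to 101165593 (minus strand, GRCh38, ENSG00000128564). AP1S1, an adaptor subunit of clathrin-coated vesicles, ends 913 bp from the end of VGF and had 3649, 3819 and 4176 counts in si-NC and 3737, 4047 and 4088 in si-SRSF11 (log2 fold change -0.06, adjusted p = 0.37). On the side of its promoter, NAT16 at 4900 bp had 48, 30 and 50 counts in si-NC and 34, 22 and 21 in si-SRSF11 (log2 fold change -0.82, adjusted p = 0.037). That call was lost with DESeq2 (adjusted p = 0.060) and without si-NC replicate 1 or 3 or si-SRSF11 replicate 2 or 3. MOGAT3 at 29414 bp was lower too (log2 fold change -0.43, adjusted p = 0.0027).

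RAB3B lies on chromosome 1 at 51907956 to 51990764 (minus strand, GRCh38, ENSG00000169213). Its neighbours NRDC at 29019 bp (log2 fold change 0.01, adjusted p = 0.88), OSBPL9 at 109529 bp (-0.04, adjusted p = 0.63) and TXNDC12 at 29367 bp (0.01, adjusted p = 0.95) were not called, and AL445685.3 had 0 counts in all 6 libraries. The signs of NRDC and TXNDC12 turned under scaling by library size. Other genes overlap 100% of the exon bases of AL445685.3, 49.7% of those of TXNDC12 and 10.96% of those of NRDC. No base of the VGF or RAB3B exons is shared with another annotated gene. Of the 100-nt windows of the RAB3B transcript 214 of 12745 (1.68%) also occur in other transcripts, and none of VGF do.

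The genes whose pattern over the 6 libraries was most like that of VGF were sought among 10930 protein-coding genes, by the Euclidean distance between deviations from the gene's own mean in log2 CPM. The nearest were OSGIN1, an oxidative stress response gene, at a distance of 0.103, the clock output factor DBP at 0.115, and CDS1, an enzyme of phospholipid synthesis, at 0.132. OSGIN1 had 765, 760 and 846 counts in si-NC and 431, 408 and 469 in si-SRSF11. For RAB3B the nearest of 10931 genes were the NADPH oxidase NOX1 at a distance of 0.382, the chemokine CXCL3 at 0.462 and C2orf72 at 0.495. NOX1 had 46, 76 and 61 counts in si-NC and 123, 131 and 140 in si-SRSF11, and like RAB3B it was highest in replicate 2 among the si-NC libraries. The distances for RAB3B were larger than those for VGF. Nothing is read from this, since RAB3B had far fewer counts than VGF and the distances also hold counting error. Other genes overlap 13.9% of the exon bases of OSGIN1 and 10.1% of those of DBP.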

How the data were processed

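Gene expression was measured by RNA-seq in 6 LoVo libraries, 3 per condition, grouped by the deposited labels. One plot of the study places its library names under the other condition, and the labels were kept because SRSF11 was lower in each si-SRSF11 library. The authors deposited raw counts per gene, without normalization or a filter on low counts. The submitters' processing notes name hg38, and each of the 58735 genes matches GENCODE 29 (Ensembl 94) in ID, start, end and strand. The aligner, the counting program and its strand setting are not given in the sources used here. Each condition held independent RNA samples according to the study, but nothing says they came from separate cultures, so p-values measure only the spread between these samples, which may be technical.

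Genes that reached 10 counts in 3 or more libraries (15801) were kept, and the deposited counts were scaled by TMM and fitted on condition alone with edgeR (version 4.0.16, R version 4.3.3, limma 3.58.1) by glmQLFit and glmQLFTest, with Benjamini-Hochberg adjustment over all tested genes. For a library with 0 counts, 3 counts were given as an upper bound, and no count was changed in the fits or levels. The members and gene lists were chosen with earlier results of these data known. Named genes are SRSF11, the members, at most 3 higher and 3 lower genes per list by adjusted p, a set of key genes of each role named whether called or not, the 2 nearest protein-coding neighbours on each side of VGF and RAB3B, and the 3 genes most like each in pattern (mean log2 CPM of at least 2, prior count 2; RAB3B had a mean of 1.95). Some genes of this rule are not reported here. ENO2, CDX1, CDX2, COL1A1 and PDGFRB were named after their values were seen.

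Alternatives were DESeq2 (version 1.42.0), scaling by library size or upper quartile, no filter or a filter of 50 counts, a fit of the protein-coding genes, a block for the replicate number, and the removal of single libraries. Promoters were searched with Python 3.11.15 (pandas 2.3.3), and plots used matplotlib 3.10.9. Gene counts hold no isoform reads, so splicing of these genes was not analysed here.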

Additional observations from a re-analysis of the deposited data

How the results depend on the processing

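VGF and RAB3B kept their direction under every alternative run. The log2 fold change of VGF was -0.91 as reported, -0.95 to -0.87 with each library left out in turn and -0.94 to -0.91 under the other alternatives, and that of RAB3B was 1.09, 0.92 to 1.43 and 1.06 to 1.11. The number of genes called was 3886 as reported, 2741 to 3871 with a library left out and 3072 (DESeq2) to 4036 (replicate block) otherwise, and the calls in the 8 lists together were 45, 37 to 43 and 41 to 47. Of 59 fitted genes that the naming rule gave, 45 kept direction and call throughout, and 8 that were called lost the call at least once. Signs turned for 4 genes close to 0 that were not called. Under scaling by library size CREB1 had -0.018, NRDC -0.0209 and TXNDC12 -0.0262, and with protein-coding genes only TXNDC12 had -0.0028. With a library left out, CREB1 ranged from -0.0765 to 0.0851, GNAS from -0.099 to 0.0027, NRDC from -0.0169 to 0.047 and TXNDC12 from -0.0565 to 0.0479. The cause was not tested.

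The replicate numbers showed at most a weak pairing of the samples. Deviations of same-numbered libraries correlated at 0.015, 0.036 and 0.040, and those of differently numbered libraries at -0.034 to -0.003. Each library thus correlated best with its own number. With the replicate number as a block, VGF had -0.91 and RAB3B 1.11, and no call of a named gene changed. Depth limits the 7 members under the filter, whose few counts leave any fold change with a large standard error. It also limits RAB3B, PCSK1N and NAT16, with under 100 counts per library. The filter of 50 counts left out SYP and NAT16, which have no value under it.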

Other observations

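The CRE was also counted over the tested genes with a promoter among those searched, which left out chromosome 8. It was found in 54 of 1552 genes called higher (3.48%), 72 of 1286 called lower (5.60%) and 263 of 7765 not called (3.39%). These shares are a description with no test, and genes with several promoters had more chances of a match. Of the 10 called genes of the CREB pathway list, CREB3L2 and DUSP1 held a CRE in this window, and both were lower. CREM, a gene of the list that was not called (log2 fold change -0.15, edgeR's adjusted p = 0.34), held a CRE in 2 of 7 promoters. PER1, EGR1 and NR4A1 held no exact TGACGTCA in this window. DUSP1, a phosphatase that acts on MAP kinases, had 470, 447 and 536 counts in si-NC and 358, 359 and 377 in si-SRSF11 (log2 fold change -0.50, edgeR's adjusted p = 8.2e-05), and it was named after its value was seen.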
